A study of Mus musculus with 6 samples.

Results

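Messenger RNAs for the nuclear-encoded subunits of the respiratory chain were followed in the cerebral cortex of SAMR1 and SAMP8 mice. The genes were chosen by symbol: every probe set whose symbol starts with Nduf, Uqcr, Atp5 or Cox followed by a digit from 4 to 8, or equals Sdha, Sdhb, Sdhc or Sdhd. This took 184 of 45077 probe sets and 90 of 22526 gene symbols. Of these, 79 encode structural subunits, 7 are complex I assembly factors (Ndufaf1 to Ndufaf7), and 4 only share the symbol pattern or a related role. The 4 are Ndufa4l2, a paralog of Ndufa4, Cox7a2l, which binds complexes III and IV into supercomplexes, Atp5s, now named Dmac2l, and Atp5sl, now named Dmac2. By symbol, 44 genes belonged to complex I, 4 to complex II, 8 to complex III, 17 to complex IV and 17 to complex V. Cox7b was not analysed here.

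The series held 6 samples from male mice labelled as 16 weeks old, an age that the study's methods give for the mice before acclimatization and dosing, with 2 biological samples in each of 3 groups. SAMR1 + Water is the senescence-resistant strain given water by mouth and stands for normal aging. SAMP8 + Water is the senescence-prone strain given water, and SAMP8 + STEE is the same strain given the ethanolic extract of sugarcane tops (STEE) at 20 mg/kg. Administration ran for 30 days and went on through 8 days of behavioral tests, which all 3 groups went through. The study also states that all animals received BrdU, a thymidine analog, in the drinking water during administration. SAMP8 and SAMR1 are separate inbred lines, so the strain comparison covers every genetic difference between them. The labels do not say whether a sample came from 1 mouse or from a pool.

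Expression was measured on microarrays, and the values used are the authors' log2 group means. A log2 difference of 1 is a doubling. Each mean stands for the 2 samples of a group with no value per sample, so no standard deviation and no test could be given, and no difference below was set against the spread between mice. A gene was counted as higher or lower where its group means differed by at least 0.2, about 1.15-fold, and the counts of respiratory chain genes over all complexes stand beside the share over all genes. Each gene was read from its brightest probe set, called its main probe set. Signals were compared between groups at 1 probe set, not between genes, because each probe set binds with its own strength. A cortex sample mixes cell types, and fewer cells of a type cannot be told apart from less RNA per cell.

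The respiratory chain moves electrons from NADH and succinate to oxygen in the inner mitochondrial membrane. Complex I (NADH dehydrogenase) and complex II (succinate dehydrogenase) pass electrons to ubiquinone, complex III passes them to cytochrome c, and complex IV (cytochrome c oxidase) passes them to oxygen. The proton gradient that complexes I, III and IV build drives complex V, the ATP synthase, on which neurons depend for most of their ATP. Complexes I, III, IV and V each combine nuclear-encoded subunits with a few that mitochondrial DNA encodes, while all complex II subunits are nuclear. Nuclear respiratory genes are known to be regulated by shared transcription factors, among them NRF-1, the ETS-family factor GABP, and YY1.

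Promoter sequence was available in the RefSeq table for 75 of the 90 genes, as 81 windows that run from 250 bases before to 50 bases after a start site. Both strands of each window were searched for an NRF-1 motif, an ETS core (letters CCGGAAG), a YY1 motif (letters AAGATGGC) and a TATA box (letters TATAAA). The ETS and YY1 motifs can overlap by the letters they share. The NRF-1 motif was found in 20 of the 81 windows (24.7%), against 4.60% of all 32851 windows in the table. The ETS letters were in 17 windows (21.0%, against 8.86% of all), and the YY1 letters in 12 (14.8%, against 2.75%). In contrast, the TATA letters were in 8 (9.88%, against 13.6%). At least 1 of the NRF-1, ETS and YY1 motifs was in 43 of the 81 windows (53.1%, against 14.7% of all), and at least 2 of them were in 6 (7.41%, against 1.47%). These motifs and shares were chosen after the data had been seen, and a match describes letters, not a bound site.

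Stretches around the NRF-1 match are shown for 6 subunit genes of complexes I, II, IV and V, since they let the shared element be seen across complexes. Each is written 5′ to 3′ in the direction of its gene, from RefSeq on GRCm38.p6, with the matched letters in capitals.
Ndufs5, chr4:123718260-123718299, minus strand: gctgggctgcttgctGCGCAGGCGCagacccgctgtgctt
Sdha, chr13:74350314-74350353, minus strand: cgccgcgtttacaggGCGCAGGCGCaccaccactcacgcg
Sdhd, chr9:50603904-50603943, minus strand: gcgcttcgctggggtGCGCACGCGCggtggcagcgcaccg
Cox6a1, chr5:115349096-115349135, minus strand: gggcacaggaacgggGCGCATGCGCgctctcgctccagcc
Atp5c1, chr2:10080433-10080464, minus strand: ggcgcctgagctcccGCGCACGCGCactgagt
Atp5g2, chr15:102671065-102671104, minus strand: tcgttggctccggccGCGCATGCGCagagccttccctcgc

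Among the members that differed most between the strains, Ndufaf1 and Ndufv3 had a promoter in the table, and the 250 bases before the start site of each are shown for that reason. Capitals mark the ETS match, which lay 11 bases before the start of Ndufaf1, and none of the 4 motifs lay in these bases of Ndufv3.
Ndufaf1, chr2:119662835-119663084, minus strand: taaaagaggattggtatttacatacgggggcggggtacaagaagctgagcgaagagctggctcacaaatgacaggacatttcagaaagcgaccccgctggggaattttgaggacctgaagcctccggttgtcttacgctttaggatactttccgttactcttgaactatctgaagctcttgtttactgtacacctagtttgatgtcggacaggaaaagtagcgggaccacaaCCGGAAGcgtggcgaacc
Ndufv3, chr17:31519865-31520114, plus strand: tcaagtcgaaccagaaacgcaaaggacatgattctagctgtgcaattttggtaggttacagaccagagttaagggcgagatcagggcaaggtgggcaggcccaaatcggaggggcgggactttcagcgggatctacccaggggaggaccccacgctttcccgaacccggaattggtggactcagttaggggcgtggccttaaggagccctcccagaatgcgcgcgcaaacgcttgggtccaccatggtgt

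In all 3 groups most respiratory chain genes gave bright signals. The main probe set had a mean log2 signal of at least 8 in 72 of the 90 genes, while the median over all probe sets of the array was 4.16 in SAMR1 + Water, 4.15 in SAMP8 + Water and 4.15 in SAMP8 + STEE. At or below a signal of 4.15 were 6 genes. They were Ndufa4l2, Cox4i2, Cox6b2, Cox7a1, Cox7b2 and Cox8b, all of them paralogs or isoforms known from other tissues or conditions. Group means at signals this low sit near the floor of the array, and their differences carry less weight.

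**Figure D1:**
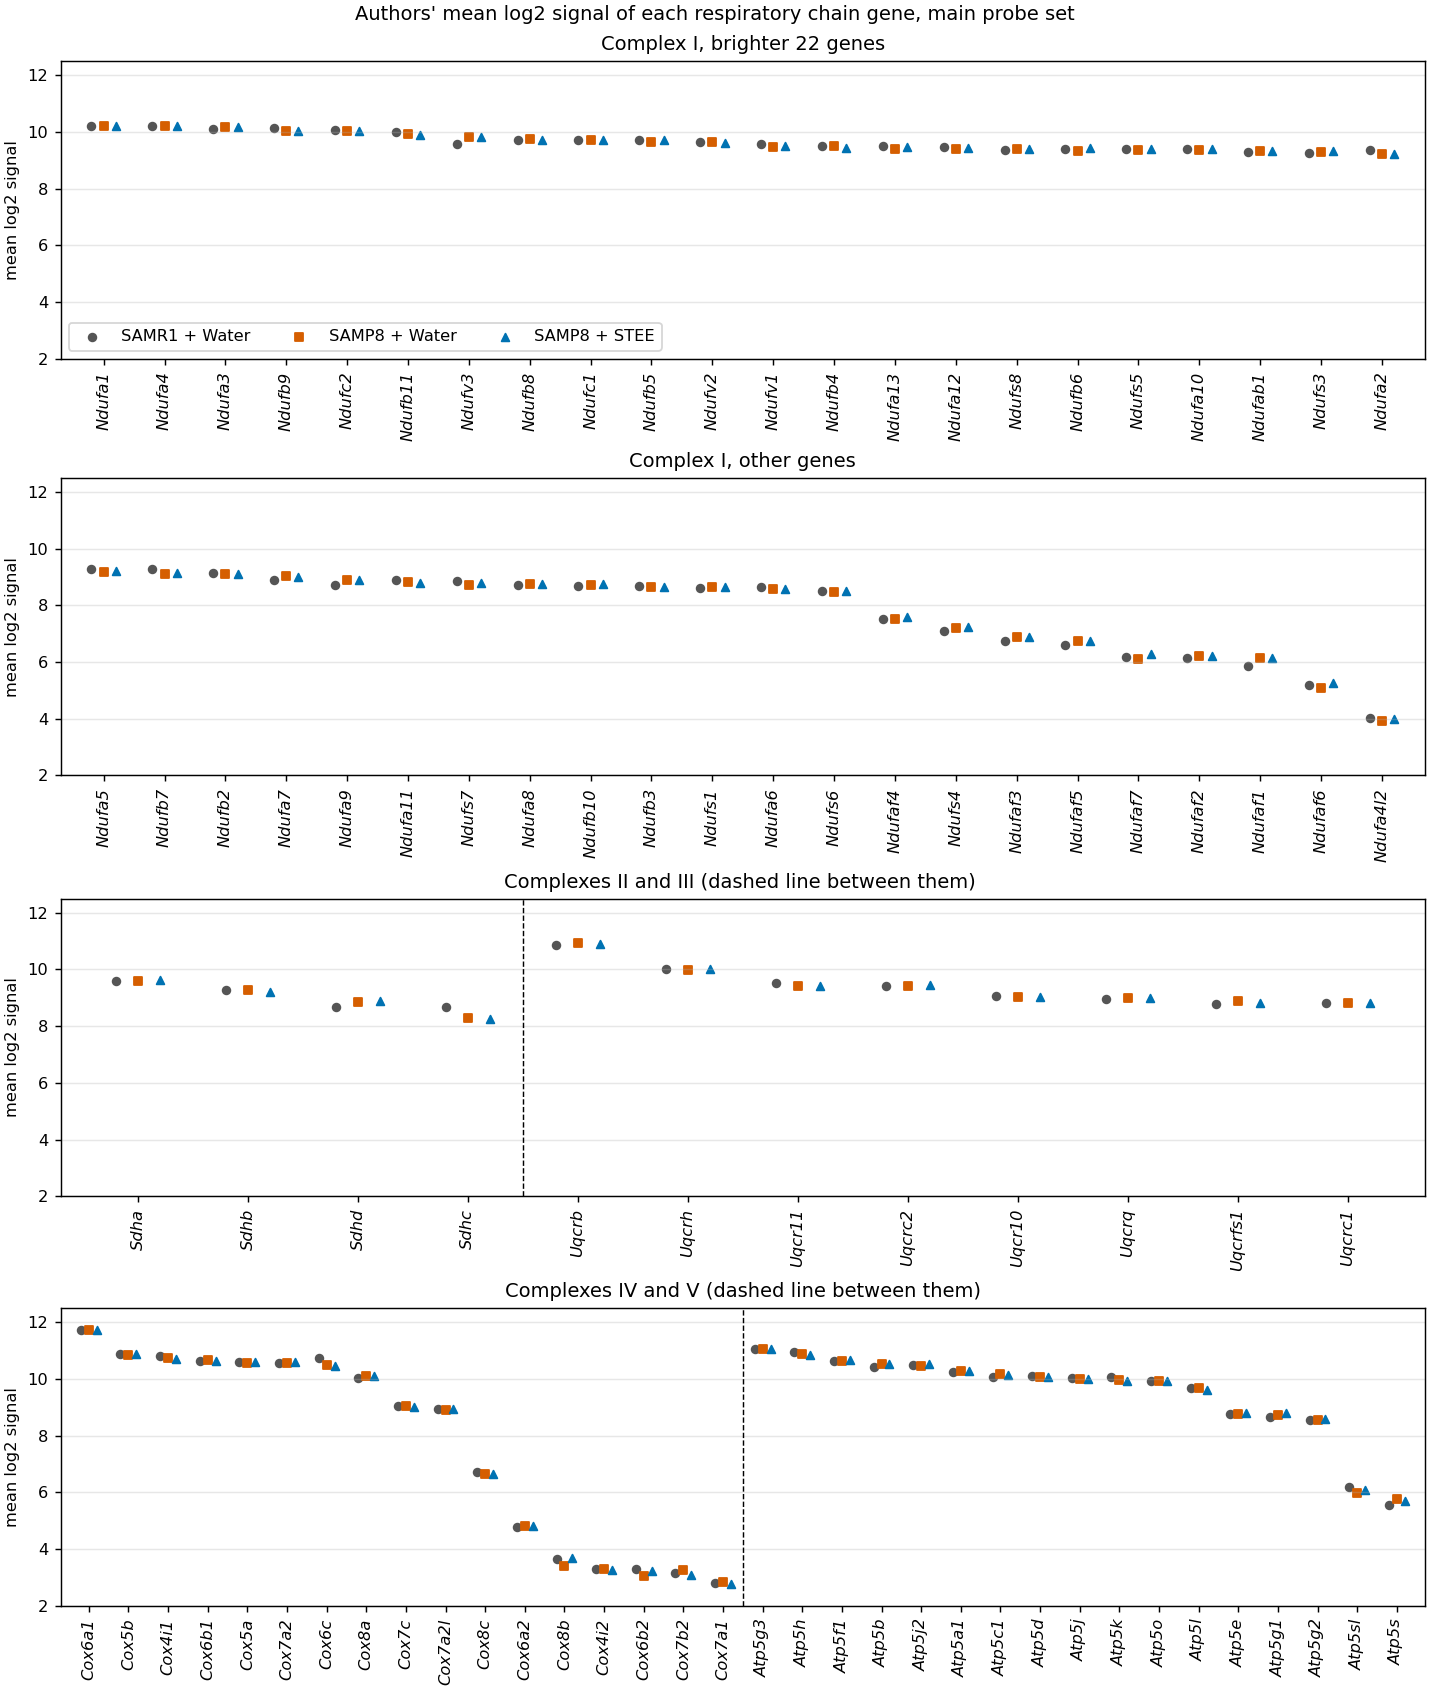
Authors' mean log2 signal (y axis) of the main probe set of each of the 90 genes (x axis, by complex and by signal) in SAMR1 + Water (circles), SAMP8 + Water (squares) and SAMP8 + STEE (triangles), with no error bars because no values per sample were used. The 3 symbols nearly coincide for most genes, and the widest gap among bright genes is that of Sdhc, from 8.66 in SAMR1 + Water to 8.25 in SAMP8 + STEE.

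The first comparison, SAMP8 + Water against SAMR1 + Water, asked how the senescence-prone cortex differed from that of normally aging mice. Respiratory chain genes as a group lay at nearly the same level in both strains. The median difference over the 90 genes was -0.01 on the log2 scale, against 0 over all 22526 genes, and the median absolute difference was 0.05, against 0.07. Of the 90 genes, 68 lay within 0.1 of 0, against 14547 of all 22526 genes. Of the members, 36 lay above 0, 47 below and 7 at 0. Over all genes, 10613 lay above 0, 11056 below and 857 at 0. Only 3 genes were higher in SAMP8 + Water by at least 0.2 (3.33%), against 6.45% of all genes. Another 4 were lower by as much (4.44%), against 6.14% of all genes. Among genes with a signal of at least 8, 1 of 72 members was higher (1.39%, against 8.61% of such genes) and 2 were lower (2.78%, against 4.43%). The median absolute difference of these bright members was 0.04, against 0.08 over the 2752 bright genes. Of the 72 bright members, 26 lay above 0 and 39 below, with a median of -0.01. Bright genes in general leaned the other way, with 1520 above 0 and 1129 below and a median of 0.02.

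**Figure D2:**
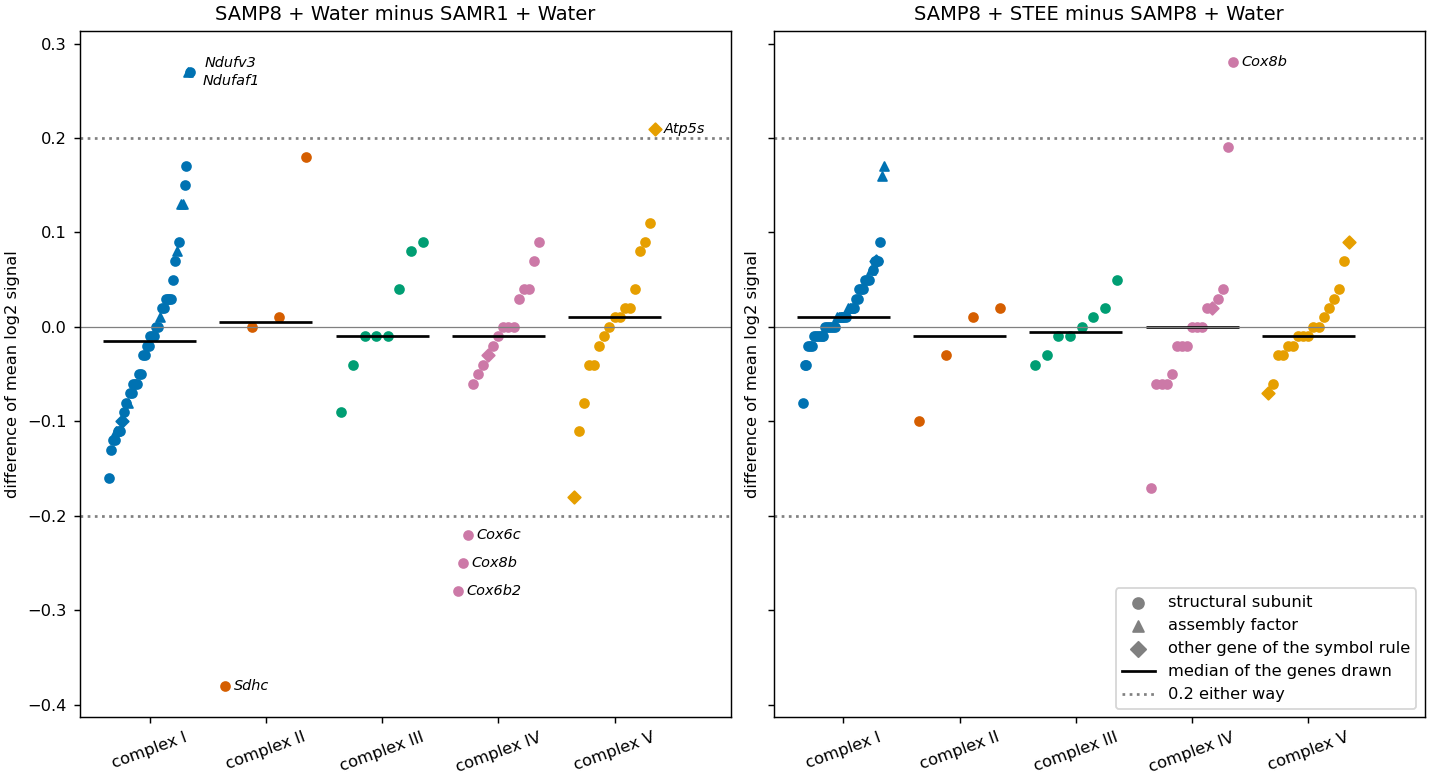
Difference of the authors' mean log2 signals (y axis) for each of the 90 genes by complex (x axis), for SAMP8 + Water minus SAMR1 + Water on the left and SAMP8 + STEE minus SAMP8 + Water on the right. Black bars are medians over the genes drawn, dotted lines mark 0.2 either way, and genes at or past these lines are named. The right panel has 1 named gene, Cox8b, while the left has 7.

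The largest difference between the strains was in complex II, where the 4 subunits went different ways. Sdhc, a membrane anchor of succinate dehydrogenase, had a mean log2 signal of 8.66 in SAMR1 + Water, 8.28 in SAMP8 + Water and 8.25 in SAMP8 + STEE (probe set 1448630_PM_a_at). It was thus lower in SAMP8 + Water by 0.38, at 0.768 times the SAMR1 signal, and it was equally low with and without the extract to within 0.03. A dimmer probe set of Sdhc, 1435986_PM_x_at, had 6.96, 6.91 and 6.88 in the same order, a strain difference of only -0.05. The 2 probe sets of Sdhc thus gave different sizes. The other anchor, Sdhd, had 8.68, 8.86 and 8.87, which put SAMP8 + Water higher by 0.18. Its dimmer probe set showed 6.66, 6.49 and 6.69, which is the other direction between the strains. Sdha, the flavoprotein that oxidises succinate, was level at 9.60, 9.60 and 9.62 on its main probe set. A second bright probe set of Sdha, 1426688_PM_at, had 8.76, 8.88 and 8.84, a strain difference of 0.12. Sdhb, the iron-sulfur subunit, had 9.28, 9.29 and 9.19.

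In complex I, 22 of the 36 structural subunits lay below 0 in SAMP8 + Water, 12 above and 2 at 0, with a median of -0.02 and a range from -0.16 to 0.27. Of the core subunits, which bind the flavin and the iron-sulfur clusters or shape the quinone site, the 6 described here had a median of 0. None of these 6 reached 0.2 either way. Ndufs7 had 8.86, 8.73 and 8.80 on its main probe set, a strain difference of -0.13, while its other probe set had 8.65, 8.70 and 8.68, a difference of 0.05. Ndufv1, which binds NADH and the flavin, had 9.59, 9.48 and 9.50, a difference of -0.11, and its other 2 probe sets were at -0.06 and 0.03. Ndufs1 had 8.61, 8.64 and 8.65, Ndufs3 had 9.27, 9.29 and 9.34, Ndufs8 had 9.38, 9.41 and 9.40, and Ndufv2 had 9.65, 9.63 and 9.62. In these last 4 core genes the strain means of the main probe sets were within 0.03 of each other. Other bright probe sets of Ndufs8 were at -0.10 and -0.14, and those of Ndufv2 at -0.09 and -0.08.

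Ndufv3, an accessory subunit of the NADH-oxidising arm, went the other way. Its means were 9.56 in SAMR1 + Water, 9.83 in SAMP8 + Water and 9.82 in SAMP8 + STEE (probe set 1424628_PM_a_at), which made it higher in SAMP8 + Water by 0.27, a ratio of 1.21. It was the only structural subunit of the 79 that was higher by at least 0.2. Ndufa7, another accessory subunit, had 8.88, 9.05 and 9.01 on its main probe set, a difference of 0.17. All 5 of its probe sets were higher in SAMP8 + Water, by 0.14 to 0.24. Ndufa9 had 8.73, 8.88 and 8.91, and Ndufb7 had 9.28, 9.12 and 9.13, a difference of -0.16. The other probe set of Ndufb7 had 8.12, 8.12 and 8.16, a difference of 0, so its probe sets gave different sizes. Ndufa1 was at 10.21 and Ndufa4 at 10.20 in every group. The symbol rule keeps Ndufa4 with complex I, although its protein was later assigned to complex IV.

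Assembly factors of complex I build the enzyme and are not part of it. Ndufaf1, which acts on the membrane arm, had 5.86 in SAMR1 + Water, 6.13 in SAMP8 + Water and 6.15 in SAMP8 + STEE (probe set 1423711_PM_at). Both SAMP8 groups were higher than SAMR1 + Water, by 0.27 and 0.29. The other 6 factors differed between the strains by less than 0.2. The median over all 7 was 0.08, with 5 above 0 and 2 below and a range from -0.11 (Ndufaf6) to 0.27.

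Complex III subunits were nearly level between the strains, from -0.09 to 0.09, and none of the 8 reached 0.2. Uqcrfs1, the Rieske iron-sulfur protein, had 8.78 in SAMR1 + Water, 8.87 in SAMP8 + Water and 8.83 in SAMP8 + STEE. The core proteins Uqcrc1 (8.82, 8.81 and 8.80 in the same order) and Uqcrc2 (9.41, 9.40 and 9.45) had strain differences of -0.01 each. Uqcrb, a small subunit, had 10.85, 10.93 and 10.90.

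Of 16 complex IV subunits, 3 were lower in SAMP8 + Water by at least 0.2, and 1 of them was bright. Over all genes 6.14% were lower by as much, and 4.43% of bright genes. Cox6c, a small nuclear subunit, had 10.72 in SAMR1 + Water, 10.50 in SAMP8 + Water and 10.44 in SAMP8 + STEE (probe set 1415970_PM_at), a strain difference of -0.22. Its other probe set, 1434491_PM_a_at, showed 9.93, 9.61 and 9.63, a difference of -0.32, so both probe sets of Cox6c were past 0.2 in the same direction. The remaining 2 were isoforms of other tissues with signals under the array median. Cox6b2, the testis isoform, had 3.31, 3.03 and 3.22, and Cox8b, the heart and muscle isoform, had 3.66, 3.41 and 3.69.

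The isoforms that brain is known to use were close between the strains. Cox4i1 had 10.79 in SAMR1 + Water, 10.73 in SAMP8 + Water and 10.71 in SAMP8 + STEE. Cox6a1 was at 11.71 in all 3 groups. Cox6b1 had 10.64, 10.68 and 10.62, Cox7a2 had 10.57, 10.57 and 10.59, and Cox8a had 10.04, 10.11 and 10.11. On their main probe sets none of these 5 differed between any groups by more than 0.08. The other probe set of Cox6b1, 1416565_PM_at, had 9.65, 9.76 and 9.78, a strain difference of 0.11. The other isoforms of these sets are known from other tissues. In the same order of groups, Cox4i2 (lung) had 3.30, 3.28 and 3.26, Cox6a2 (heart and muscle) had 4.78, 4.81 and 4.81, and Cox7a1 (heart and muscle) had 2.79, 2.83 and 2.78. The testis isoforms Cox7b2 and Cox8c had 3.17, 3.26 and 3.09, and 6.70, 6.66 and 6.64. Cox7a2l, the supercomplex factor, had 8.94, 8.91 and 8.93, and Ndufa4l2 had 4.03, 3.93 and 4.0. Apart from Cox6b2 and Cox8b, no isoform of these sets differed between the strains by as much as 0.2, while between the SAMP8 groups Cox7b2 differed by -0.17.

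On main probe sets complex V was even between the strains, with none of its 15 structural subunits past 0.2 and a range from -0.11 to 0.11. The catalytic head subunits Atp5a1 (alpha), Atp5b (beta) and Atp5c1 (gamma) were higher in SAMP8 + Water by 0.04, 0.11 and 0.08. Atp5b had 10.43 in SAMR1 + Water, 10.54 in SAMP8 + Water and 10.54 in SAMP8 + STEE. Atp5a1 had 10.25, 10.29 and 10.28, and Atp5c1 had 10.08, 10.16 and 10.13. A second bright probe set of Atp5a1, 1423111_PM_at, had 9.85, 10.06 and 10.01, a strain difference of 0.21. Its dimmer probe set, 1420037_PM_at, was at -0.17. The genes Atp5g1, Atp5g2 and Atp5g3 encode the same mature c subunit of the rotor. They had strain differences of 0.09, 0.01 and 0.02, with means for Atp5g3 of 11.04, 11.06 and 11.06. Among the genes that are not subunits, Atp5s had 5.55, 5.76 and 5.69, a strain difference of 0.21 on its only probe set. Atp5sl had 6.17, 5.99 and 6.08, a difference of -0.18.

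The probe sets of 1 gene gave a measure of how far differences this small depend on where an mRNA is probed. It is not the spread between mice. In 38 genes with at least 2 probe sets at a signal of at least 8 (86 probe sets), the range of the strain difference over the probe sets of a gene had a median of 0.07 and reached 0.20 in Ndufa12. For the extract comparison the median range was 0.045 and the largest was 0.21, in Atp5o. Over all signals, all probe sets of a gene were on 1 side in the strain comparison for 22 of the 54 genes that have several, 8 above 0 and 14 below. Atp5a1 had probe sets at 0.04, 0.21 and -0.17, and the 4 probe sets of Ndufs4, a complex I subunit, ran from -0.06 to 0.21. The other 5 probe sets of Ndufs8 ran from -0.14 to 0.02. Over all signals the range over the probe sets of a gene was widest in Atp5a1 (0.38), Sdhd (0.35), Sdhc (0.33), Ndufs4 (0.27) and Cox5b (0.26). The strain differences of the main probe sets of Sdhc, Ndufv3 and Cox6c were larger than the largest range among bright probe sets, but none was larger than the range in Atp5a1.

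**Figure D3:**
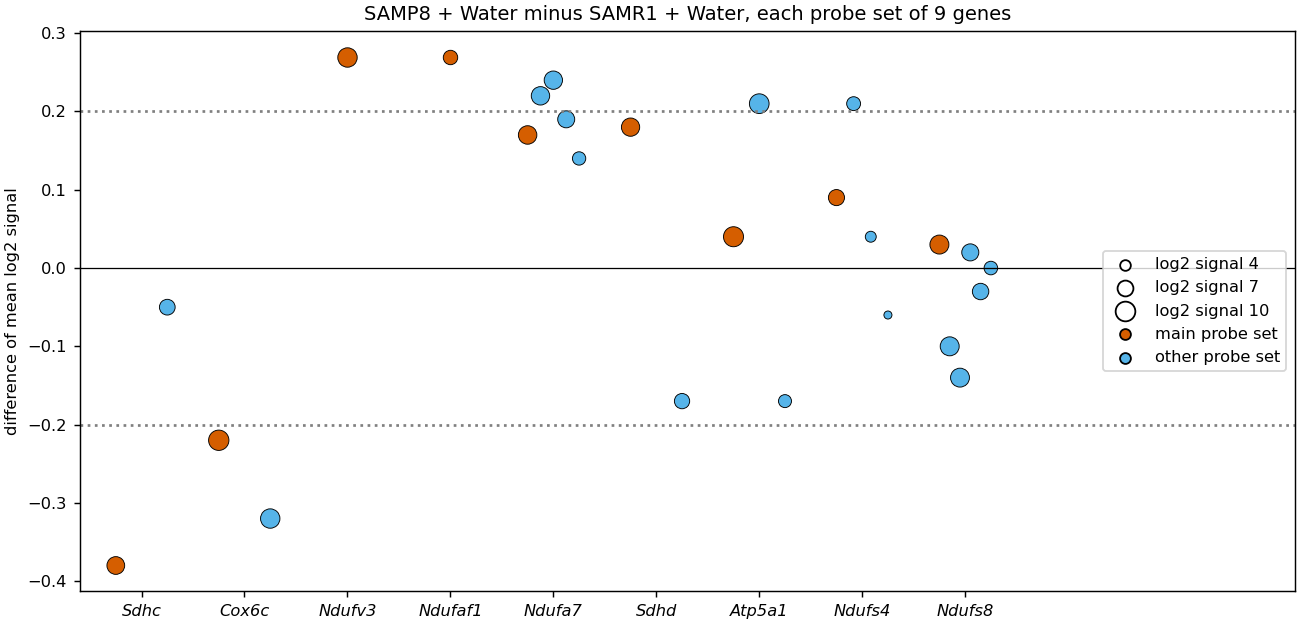
Difference of the authors' mean log2 signals, SAMP8 + Water minus SAMR1 + Water (y axis), for each probe set of 9 genes (x axis), with the main probe set in orange and the others in blue, and with larger circles for brighter signals. Both probe sets of Cox6c and all 5 of Ndufa7 lie on 1 side, while those of Sdhd, Atp5a1, Ndufs4 and Ndufs8 lie on both sides of 0.

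The second comparison, SAMP8 + STEE against SAMP8 + Water, asked what the extract did within the senescence-prone strain. Respiratory chain genes differed little. The median difference was 0 and the median absolute difference 0.02, against 0.06 over all genes and 0.04 over bright genes. Within 0.1 of 0 lay 85 of the 90 genes, against 16934 of all 22526 genes. One gene, Cox8b, was higher by at least 0.2 (1.11%, against 3.05% of all genes), and 0 of 90 were lower (against 2.67%). Cox8b was at 3.41 without and 3.69 with the extract, a difference of 0.28 at a signal under the array median. Among the 72 bright members 0 were higher (against 1.24% of bright genes) and 0 lower (against 0.872%). All 72 lay within 0.1, from -0.10 (Sdhb) to 0.09 (Ndufb6), as did 2446 of the 2752 bright genes. These counts rest on main probe sets. The other probe set of Atp5o, 1437164_PM_x_at, had 8.49 in SAMR1 + Water, 8.33 in SAMP8 + Water and 8.53 in SAMP8 + STEE. It was thus higher by 0.20 with the extract, while the main probe set was at -0.01. With no value per sample, the range over main probe sets bounds the difference of the deposited means only and is not an interval for the effect of the extract.

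By complex, the median difference with the extract was 0.005 over the 36 subunits of complex I (range -0.08 to 0.09) and -0.01 over the 4 of complex II (-0.10 to 0.02). It was -0.005 over the 8 of complex III (-0.04 to 0.05), -0.01 over the 16 of complex IV (-0.17 to 0.28) and -0.01 over the 15 of complex V (-0.06 to 0.07). Both ends of the range in complex IV were dim isoforms, Cox7b2 at -0.17 and Cox8b at 0.28, beside Cox6b2 at 0.19. The 7 complex I assembly factors all lay above 0, from 0.01 to 0.17, and none reached 0.2. Over all genes, 10902 of 22526 lay above 0. Ndufaf6 had 5.08 without and 5.25 with the extract, and Ndufaf7 had 6.11 and 6.27. The remaining 5 factors differed by at most 0.06 on their main probe sets. A dimmer probe set of Ndufaf4, 1435333_PM_at, was at 0.13 with the extract and at 0.28 in SAMP8 + STEE against SAMR1 + Water.

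**Figure D4:**
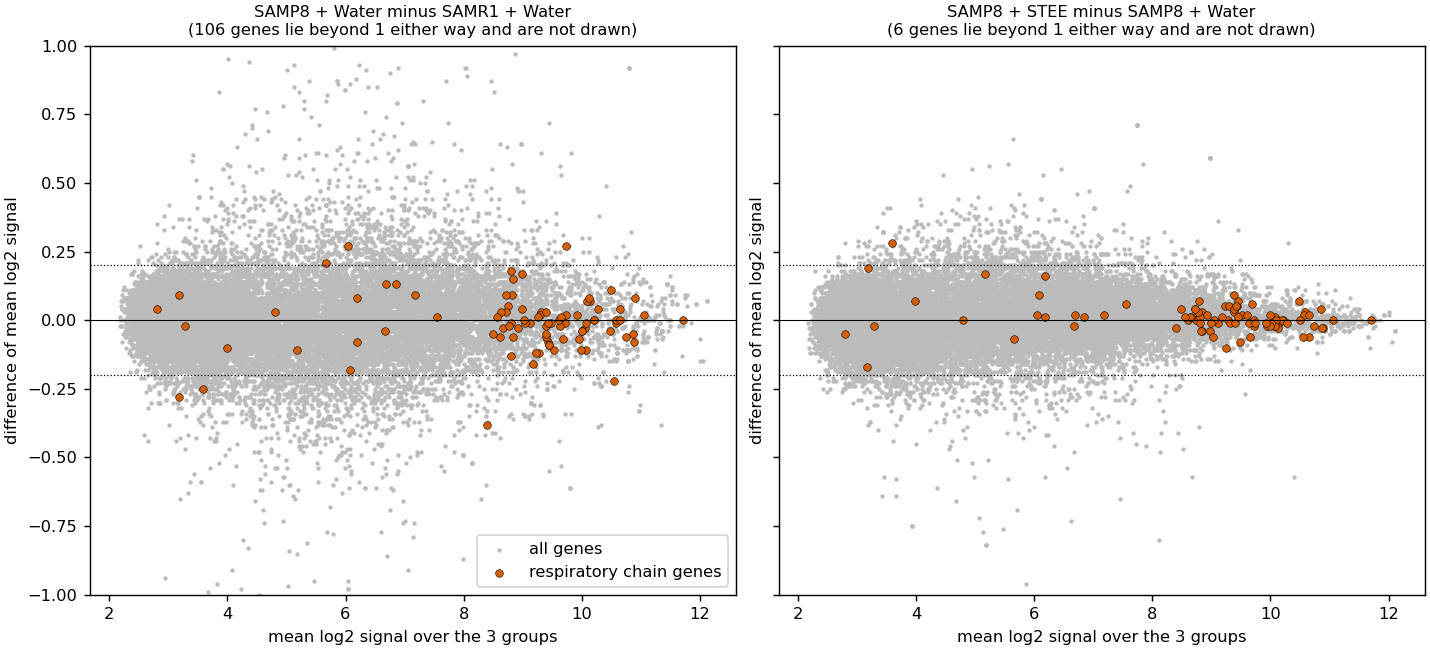
Difference of the authors' mean log2 signals (y axis) against the mean log2 signal over the 3 groups (x axis) for all genes (gray) and the 90 respiratory chain genes (orange), for the strain comparison on the left and the extract comparison on the right. Dotted lines mark 0.2 either way, and 106 genes on the left and 6 on the right lie beyond 1 and are not drawn. Each gene is drawn at its main probe set. Respiratory chain genes crowd at the bright end, close to 0, and in the right panel no bright one lies beyond 0.1.

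Of the 7 genes past 0.2 between the strains, 4 differed by at most 0.06 between the SAMP8 groups. With the extract, Sdhc was at -0.03, Cox6c at -0.06, Ndufv3 at -0.01 and Ndufaf1 at 0.02 relative to SAMP8 + Water. Of these, Sdhc, Cox6c and Ndufaf1 thus lay slightly further from SAMR1 + Water, and Ndufv3 slightly nearer. The other 3 of the 7 moved back toward SAMR1 + Water. Cox6b2 and Cox8b, both dim, were at 0.19 and 0.28 with the extract after -0.28 and -0.25 between the strains, and Atp5s was at -0.07 after 0.21. The 2 comparisons share the SAMP8 + Water mean, so an error in that mean enters both with opposite sign.

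The third comparison, SAMP8 + STEE against SAMR1 + Water, does not use that mean but shares 1 group with each of the others. Over the 90 genes the median difference was 0 and the median absolute difference 0.05, against 0.08 over all genes. Higher by at least 0.2 were 2 genes (2.22%, against 8.19% of all genes), Ndufaf1 at 0.29 and Ndufv3 at 0.26. Lower by as much were 2 genes (2.22%, against 6%), Sdhc at -0.41 and Cox6c at -0.28. Among bright genes these shares were 1.39% of 72 members higher, against 11.8%, and 2.78% lower, against 5.41%. Cox6b2 was at -0.09, Cox8b at 0.03 and Atp5s at 0.14 in this comparison, all short of 0.2.

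Other genes that serve the chain were read from lists, whose counts stand against 6.45% of all genes higher and 6.14% lower between the strains, and 3.05% and 2.67% with the extract. With so few genes in most lists, 1 gene is a large share of a list. Of 12 subunits and electron carriers outside the symbol rule, among them Cyc1 (cytochrome c1) and Cycs (cytochrome c), 1 was past 0.2 between the strains and 1 with the extract, both times Coq10b, a coenzyme Q-binding protein, at 0.30 and -0.54. Cyc1 had 9.13 in SAMR1 + Water, 9.11 in SAMP8 + Water and 9.07 in SAMP8 + STEE, and Cycs had 10.40, 10.42 and 10.45. Of 16 complex IV assembly factors, 1 was higher between the strains (Coa6, 0.29) and 1 with the extract (Cox15, 0.25), 6.25% each time. Of 9 assembly factors of complexes II, III and V, 3 were higher in SAMP8 + Water (33.3%), Sdhaf2 by 0.22, Tmem70 by 0.23 and Ttc19 by 0.20, and 0 with the extract. The 13 enzymes of the citric acid cycle held 0 genes past 0.2 in either comparison, with medians of 0.04 and 0.02. ND5, the 1 mitochondrially encoded subunit measured, had 11.72, 11.70 and 11.72.

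Of 17 genes used as a reading of mitochondrial mass, 2 import receptors or channels (11.8%) were higher in SAMP8 + Water (Tomm22, 0.21, and Tomm40, 0.25) and 0 genes lower, with a median of 0.08. With the extract the median was 0 and 0 genes passed 0.2. Of 13 known regulators of respiratory genes, 1 was lower between the strains (Polrmt, the mitochondrial RNA polymerase, -0.21, or 7.69% of the list). With the extract 0 reached 0.2 either way. The 76 mitochondrial ribosome genes held 7 that were higher between the strains (9.21%, against 6.45% of all genes, Mrpl14 the most at 0.67) and 3 with the extract (3.95%, against 3.05%), and 0 lower in either, with medians of 0.04 both times. In SAMP8 + STEE against SAMR1 + Water 16 of them were higher (21.1%, against 8.19% of all genes), with a median of 0.09, as were 5 of the 17 mass genes (29.4%).

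Marker genes of cell types and of nearby brain regions also differed between the strain groups. All 5 striatal markers were higher in SAMP8 + Water, by 0.32 to 0.87, and 4 of 6 oligodendrocyte markers were lower by at least 0.2 (66.7%, against 6.14% of all genes), with a median of -0.325. The mean log2 level over the striatal list was 7.08 in SAMR1 + Water, 7.64 in SAMP8 + Water and 7.72 in SAMP8 + STEE, and over the oligodendrocyte list it was 9.79, 9.48 and 9.47. Ttr, a choroid plexus gene, was lower by 1.96 in SAMP8 + Water and higher by 1.09 with the extract. The other 3 choroid plexus markers were within 0.2, but Folr1 and Kl had signals under the array median. The brighter Clic6 was at -0.18 between the strains and at 0.01 with the extract. None of 8 neuronal markers passed 0.2 between the strains (median 0.065), and 1 did with the extract (Nefm, 0.22). The other lists stand against 6.45% of all genes higher and 6.14% lower between the strains. Of 4 interneuron markers, 1 was higher (Gad1, 0.24) and 1 lower (Kcnc1, -0.24). Of 6 astrocyte markers, 1 was higher (Gfap, 0.21) and 1 lower (Gja1, -0.20), so neither list went 1 way. Lower were also 1 of 6 microglia markers (Csf1r, -0.21) and 1 of 4 endothelial markers (Cldn5, -0.28). None of 4 blood and none of 4 muscle markers reached 0.2. The blood markers Hbb-b1 and Hbb-bs had the same values in every group, and Alas2, Ckm, Myh4 and Tnnt3 had signals under the array median. Neuronal markers such as Snap25 (11.38, 11.54 and 11.58) gave bright signals in every group. The part of the tissue pieces taken or of cell makeup in the differences of respiratory chain genes was not tested.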

How the data were processed

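Cerebral cortex RNA from 6 samples, 2 in each of 3 groups, had been hybridised by the authors to Affymetrix Mouse Genome PM array strips. Per the labels and the study's methods, the authors summarised the probes by RMA with Affymetrix Expression Console, and Transcriptome Analysis Console served for their group comparisons. The deposited tables hold, for 45077 probe sets, log2 group means to 2 decimals (the bi-weight average of a group's samples, per the file headers). They also hold the authors' fold change, ANOVA p-value and false discovery rate for each of 2 comparisons, which were not used. RMA corrects the background, scales arrays to 1 distribution and compresses differences of dim probe sets. The genome build of the tables is not given in the sources used here.

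Samples were grouped by strain and treatment as labelled. The SAMP8 + Water means of both tables were identical (difference 0). Probe sets were split into symbols, 5694 having none, and each gene took the probe set with the highest mean over the 3 group means. Among the members' main probe sets, 22 carry x or s in their ID, which marks possible binding to other transcripts, and 10 list several symbols. Differences of log2 means were computed without a test, and a gene was called at an absolute difference of at least 0.2, a threshold that sets the counts. The script was tested on simulated data. The precision is limited by the 2 samples per group.

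Members and lists were chosen with earlier results of these data known. One gene that the symbol rule takes is not reported here and was left out of every count. The genes named were the 6 highest and the 6 lowest past 0.2 in each comparison, the core and catalytic subunits, complex II, the isoform sets and the brightest and dimmest gene of each complex. Genes with all probe sets on 1 side and at least 1 past 0.2 could be named (Ndufa7). Genes outside this rule (Ndufa9, Ndufb6, Ndufb7, Ndufs4, Ndufs5, Cox5b, Atp5o, Atp5sl, Ndufa12, single assembly factors) and the list genes were named after their values were seen. RefSeq names (GRCm38.p6) matched 87 genes by symbol and 3 by an older symbol (Atp5f1, Atp5s and Atp5sl), and gave promoters. Alternatives were the mean or median over a gene's probe sets, the exclusion of x and s or of multi-symbol probe sets, a signal of at least 6, centring on the median, structural subunits only, and thresholds of 0.1 and 0.3. The bright-gene background, the probe set ranges and the motifs were added after seeing the data. Python 3.11.15, numpy 2.4.6, pandas 2.3.3 and matplotlib 3.10.9 were used.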

Additional observations from a re-analysis of the deposited data

How the results depend on the processing

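The medians over the members kept within 0.01 of the reported values under every alternative. No called difference of the 40 named genes reversed when a gene was read as the mean over its probe sets or when the means were centred. Neither reading could have reversed them, so this is no check on direction. Ndufaf1, Ndufv3, Atp5s, Cox6b2 and Cox8b have 1 probe set each, and both probe sets of Sdhc and of Cox6c lay below 0 between the strains. The medians used for centring were 4.16, 4.15 and 4.15. The counts depended on the threshold. Between the strains, the 3 higher genes became 9 at 0.1 (10% of members, against 19.2% of all genes) and 0 at 0.3 (against 2.87%), and the 4 lower genes became 14 (15.6%, against 20.3%) and 1 (1.11%, against 2.3%). With the extract, the 1 higher gene became 4 at 0.1 (4.44%, against 14.6%) and 0 at 0.3 (against 0.737%), and the 0 lower genes became 2 at 0.1 (2.22%, against 14.2%). In SAMP8 + STEE against SAMR1 + Water, the 2 higher genes became 11 (12.2%, against 20%) and 0 (against 3.56%), and the 2 lower genes 8 (8.89%, against 20.9%) and 1 (1.11%, against 2.26%). With structural subunits only, 1 gene was higher both between the strains and in SAMP8 + STEE against SAMR1 + Water. With a signal of at least 6, 2 genes were lower between the strains and 0 were higher with the extract, since dim isoforms leave the list by construction.

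No paired analysis was possible because the tables carry 1 mean per group with no replicate numbers. Leaving out a sample was not possible for the same reason. No precision was given for any difference, since the authors' p-values were not used, and signals near the array floor limit the reading of the isoforms of other tissues.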
